A study of Rattus norvegicus with 111 samples.

Results

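The livers described here came from pregnant Sprague-Dawley (Crl:CD(SD)) rats given 10 mg/kg/d of PFO4DA by mouth on each day from gestational day 18 to 22, and they were compared with livers of dams given the vehicle alone (0.5% Tween-80). The study dosed dams with PFO4DA or PFO5DoA and took maternal and fetal liver, each dam being a separate, individually housed animal about 11 to 12 weeks old, killed 2 to 4 h after the last dose. Of 111 libraries in the series, 4 were maternal liver at 10 mg/kg/d PFO4DA (dams 2303, 2304, 2305 and 2316), and 6 were maternal liver of PFO4DA controls (dams 2293, 2294, 2295, 2308, 2309 and 2310). The other groups used for comparison were the 20 maternal PFO4DA libraries at other doses (4 each at 0.3, 1, 3, 30 and 62.5 mg/kg/d), the fetal livers of the PFO4DA dams, and maternal livers from the PFO5DoA arm. That arm had 6 controls, 3 dams at each of 0.3 and 1 mg/kg/d and 4 dams at each of 3, 10 and 30 mg/kg/d.

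The deposited columns are named by dam and do not say which of a dam's 2 libraries is maternal. Maternal libraries were therefore chosen by correlation: the library whose log2(CPM + 1) values correlated better with those of dam 2286, given 30 mg/kg/d PFO5DoA and the only dam with a maternal library alone, was taken as maternal. CPM is the count of a gene after every library is brought to the same total. Pearson's r with that library was 0.955 to 0.978 for the 4 libraries taken as maternal at 10 mg/kg/d and 0.896 to 0.918 for their fetal partners. In the controls it was 0.968 to 0.970 for maternal and 0.872 to 0.908 for fetal libraries. The smallest gap within any of these 10 dams was 0.058. These correlations are given as a description, since the libraries were selected on them. A set of 106 genes, each at 50 CPM or more in fetal control liver and at least 20-fold above maternal control liver, took 0.122 to 0.217% of the counts in maternal libraries at 10 mg/kg/d, 0.198 to 0.412% in maternal controls and 15.6 to 21.1% in the fetal libraries at 10 mg/kg/d. These genes were picked from the controls as assigned, so their low share in the maternal controls follows from the choice, and all 3 ranges are a description. Hepatocyte, erythroid and other marker genes were not looked up, because 0 of 20311 Ensembl gene IDs could be paired with a symbol. Genes are therefore given by ID, without names or functions, and no cell type was checked by its markers. In whole liver, a loss of one type of cell and a lower level in each of its cells cannot be told apart.

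PFO4DA and PFO5DoA are perfluorinated ether carboxylic acids, members of the large family of per- and polyfluoroalkyl substances (PFAS). Both carry a carboxylic acid head on a chain of repeated difluoromethoxy units, and PFO5DoA has an additional such unit. In rodents the liver is a main site where perfluorinated acids accumulate. Fatty-acid-like PFAS bind nuclear receptors of hepatocytes, above all PPARalpha, which turns on genes of fatty acid oxidation. In late pregnancy the maternal liver supplies lipid and glucose to the conceptus, while the fetal liver is still a blood-forming organ.

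Total counts were 11449251 to 11599690 in the 4 maternal libraries at 10 mg/kg/d and 8236134 to 9985453 in the 6 controls, so that every dosed library was deeper than every control. Thinning all maternal PFO4DA libraries at random to 7192234 counts, an alternative chosen after the totals were seen, left the same number of called genes (1). Dam 2303 stood apart from the other dosed dams. Its maternal library held counts for 15570 genes, against 13251, 13754 and 13510 in dams 2304, 2305 and 2316 and 12840 to 13591 in the controls. It also had the lowest r with dam 2286 (0.955). Several results are given with and without it. The counts of genes above or below every control are given with it only. Among the other doses in the shared fit, dam 2302 at 3 mg/kg/d had counts for still more genes (17800).

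The first comparison asked which genes 10 mg/kg/d PFO4DA changed in maternal liver. In edgeR and in limma 1 gene rose and 0 fell, while DESeq2 called 23 rises and 10 falls. The gene ENSRNOG00000016219 had 60.6 CPM in dam 2303, 90.7 CPM in dam 2304, 48.2 CPM in dam 2305 and 38.5 CPM in dam 2316, after scaling by the trimmed mean of M values (TMM). The 6 controls ranged from 13.4 to 26.1 CPM with a median of 18.2 CPM. All 4 dosed livers lay above the highest control, with dam 2304 highest and dam 2316 lowest. The means were 59.5 ± 22.7 CPM (SD, n = 4) and 18.9 ± 4.42 CPM (SD, n = 6). This was a 3.15-fold rise, or 1.65 on the log2 scale (standard error 0.20), with an adjusted p of 3.49e-05 (quasi-likelihood test of edgeR, Benjamini-Hochberg adjustment). Leaving out each of the 10 libraries in turn kept it between 1.37 and 1.81, and it was 1.64 without dam 2303 (edgeR, adjusted p = 0.000301). All 111 deposited values of this gene were whole numbers.

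At the other doses the same gene was fitted together with the 10 mg/kg/d group, against the same controls. Mean maternal levels were 28.3 ± 6.46 CPM (SD, n = 4) in the 0.3 mg/kg/d group, 19.4 ± 3.18 CPM (SD, n = 4) in the 1 mg/kg/d group and 28.3 ± 6.47 CPM (SD, n = 4) in the 3 mg/kg/d group. None of these 3 doses passed the test for the gene. The 30 mg/kg/d group had 114 ± 17.4 CPM (SD, n = 4), a log2 fold change of 2.59 (edgeR, adjusted p = 1.07e-09). The 62.5 mg/kg/d group had 147 ± 30.4 CPM (SD, n = 4), a log2 fold change of 2.96 (edgeR, adjusted p = 4.22e-11). Every library of the 10 mg/kg/d group lay above every library of the lower doses. Its highest, at 90.7 CPM, lay just above the lowest of the 30 mg/kg/d group, at 89.9 CPM, so that these groups overlapped in that 1 pair of libraries.

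**Figure D1:**
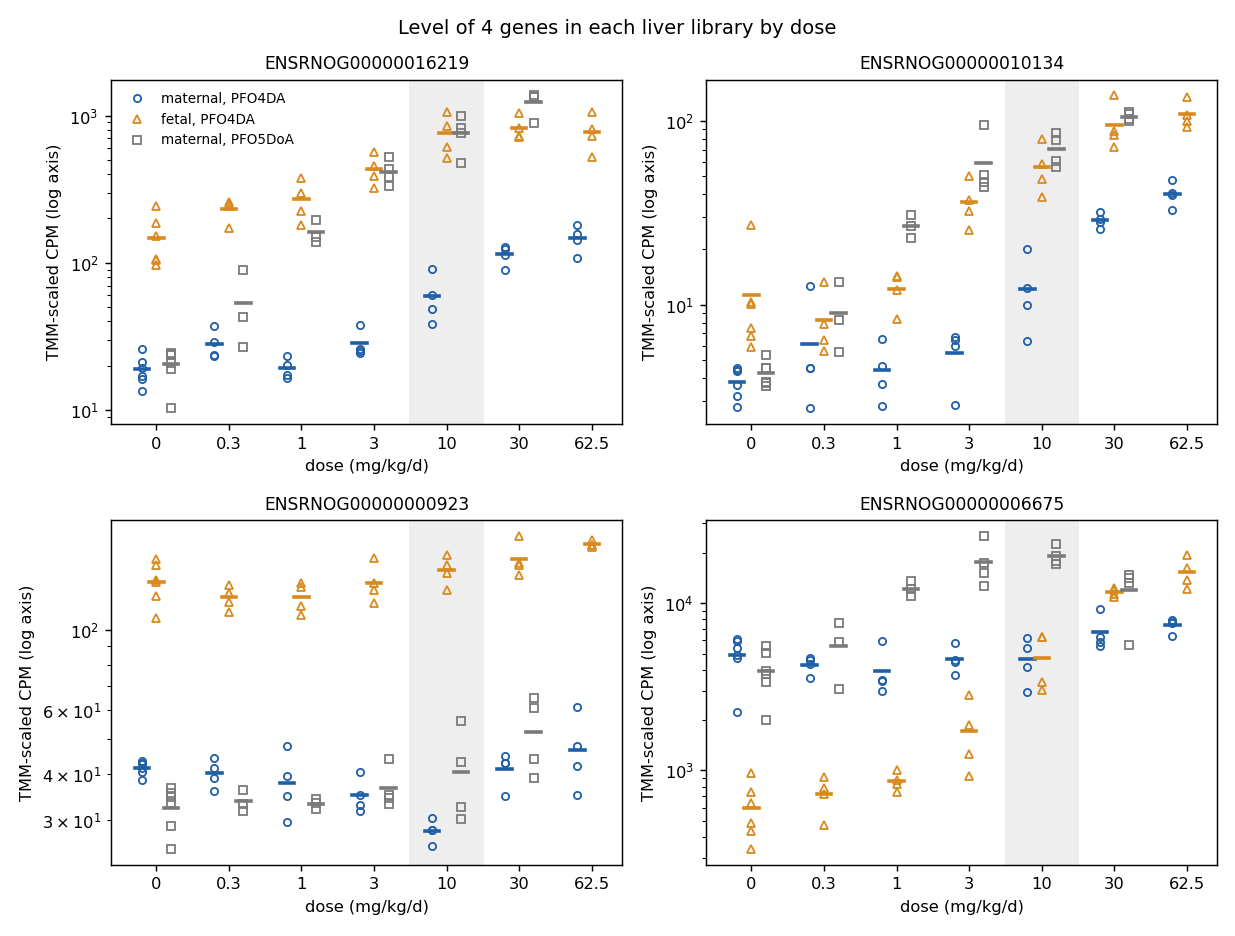
Level of 4 genes (TMM-scaled CPM, log axis) in each liver library against dose in mg/kg/d. Points are libraries and bars are group means; circles are maternal PFO4DA, triangles fetal PFO4DA and squares maternal PFO5DoA, each scaled within its own fit. At 10 mg/kg/d (shaded) the maternal PFO4DA livers had 38.5 to 90.7 CPM of ENSRNOG00000016219, against 13.4 to 26.1 CPM in their controls.

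Few genes passed over the whole transcriptome. Of 10263 genes tested, 1 was called at an adjusted p under 0.05 (0.00974%), the rise above. The count of falls was 0 in edgeR, with 349 genes lower at an unadjusted p under 0.05 (3.4%), and 476 genes were higher at that level (4.64%). Without dam 2303 the balance turned, with 490 genes lower and 405 higher of 10368 tested. limma also called 1 rise and 0 falls, with 395 genes lower at an unadjusted p under 0.05 (3.85%). DESeq2, with its own filter that left 4779 genes, called 33 genes (0.691%), of which 23 rose (0.481%) and 10 fell (0.209%). All 33 had an unadjusted edgeR p under 0.05. Log2 fold changes from DESeq2 had a median of 0.80 for the 23 rises and -0.54 for the 10 falls. The median log2 fold change over all genes tested in edgeR was 0.02, and the median standard error was 0.22. Log2 fold changes of at least 1 were seen for 156 genes, and of at most -1 for 51. Every dosed liver lay above every control for 90 genes (0.877%) and below every control for 75 (0.731%).

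**Figure D2:**
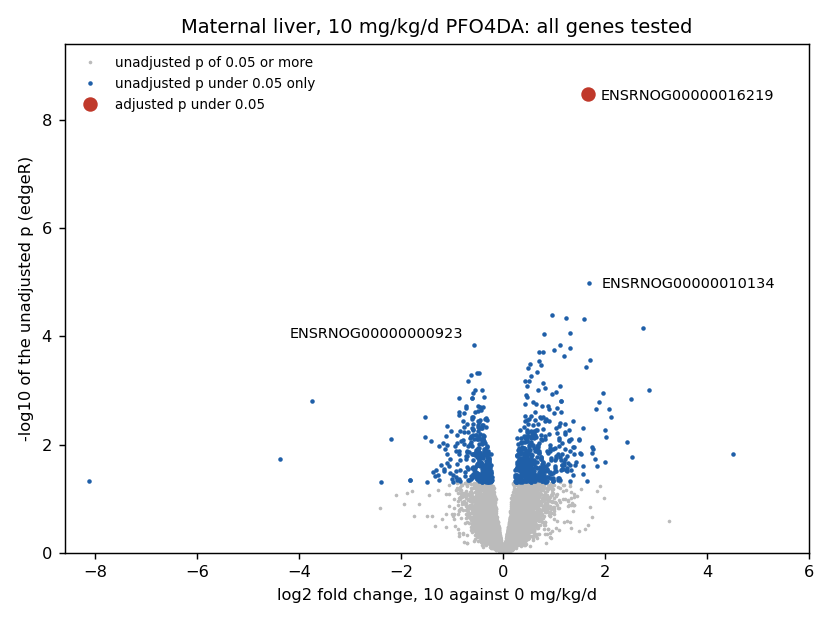
Log2 fold change at 10 against 0 mg/kg/d PFO4DA in maternal liver (x axis) against -log10 of the unadjusted edgeR p (y axis), 1 point for each of 10263 genes. The single gene past the adjusted threshold is ENSRNOG00000016219. The 5 genes more than 3 log2 units from 0 had adjusted p of 0.316 or more.

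The gene next in order of p was ENSRNOG00000010134, chosen for that place after the values were seen. Its levels were 20.1 CPM in dam 2303, 12.4 CPM in dam 2304, 6.34 CPM in dam 2305 and 9.93 CPM in dam 2316, and the controls ranged from 2.79 to 4.51 CPM with a median of 4.02 CPM. The groups did not overlap, and dam 2303 was the highest. The log2 fold change, 1.68 (standard error 0.31), missed the threshold (edgeR, adjusted p = 0.0524). It passed with DESeq2 (adjusted p = 0.000612) and without dam 2305 (edgeR, adjusted p = 0.00781), and it was 1.31 without dam 2303 (edgeR, adjusted p = 0.173). In the 30 and 62.5 mg/kg/d groups it had means of 28.8 ± 2.45 CPM (SD, n = 4) and 40.2 ± 6.21 CPM (SD, n = 4), and both rises passed (edgeR, adjusted p = 3.99e-07 and 1.28e-08). Its deposited values had decimals in 57 of 111 libraries, which whole reads alone do not give, so its levels depend on how the deposited counting handled those reads.

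Among lower genes the smallest p belonged to ENSRNOG00000000923, also picked after the values were seen. It had 25.4 CPM in dam 2303, 28.1 CPM in dam 2304, 28.2 CPM in dam 2305 and 30.4 CPM in dam 2316. The controls ranged from 38.6 to 43.6 CPM with a median of 42.2 CPM, so the groups did not overlap. The log2 fold change of -0.57 (standard error 0.13) did not pass in edgeR (adjusted p = 0.145) and passed with DESeq2 (adjusted p = 0.00717). The mean level was lower with each step in dose up to 10 mg/kg/d and higher again above it. Log2 fold changes were -0.05, -0.14 and -0.25 in the 0.3, 1 and 3 mg/kg/d groups, and none of them passed in edgeR. Libraries of the 1 mg/kg/d group ranged widely, from 29.6 to 47.9 CPM. The mean was 35.1 ± 3.99 CPM (SD, n = 4) in the 3 mg/kg/d group and 28.0 ± 2.02 CPM (SD, n = 4) in the 10 mg/kg/d group. It was 41.4 ± 4.44 CPM (SD, n = 4) in the 30 mg/kg/d group and 46.6 ± 11.0 CPM (SD, n = 4) in the 62.5 mg/kg/d group. At the upper 2 doses the log2 fold changes were -0.01 and 0.16 (edgeR, adjusted p = 0.992 and 0.631). Decimals were present in 87 of its 111 deposited values.

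The dosed livers did not depart from the controls to the same extent. In dam 2303, 824 genes lay at least 1 log2 unit above the control mean and 658 at least 1 below, together 14.4% of the genes tested. The corresponding totals were 5.62% in dam 2304, 5.48% in dam 2305 and 3.58% in dam 2316. Each control set against the other 5 gave 3.63 to 4.09%, apart from control dam 2295 with 7.3%. By this measure the liver of dam 2316 departed no more than any control did, those of dams 2304 and 2305 departed more than all controls but dam 2295, and that of dam 2303 departed more than every control. Without dam 2303, 87 of the 156 genes with a log2 fold change of at least 1 stayed at or above 1. The genes at or above 1 then numbered 142 in place of 156, and those at or below -1 numbered 137 in place of 51. The count of calls was 1 with and without it.

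**Figure D3:**
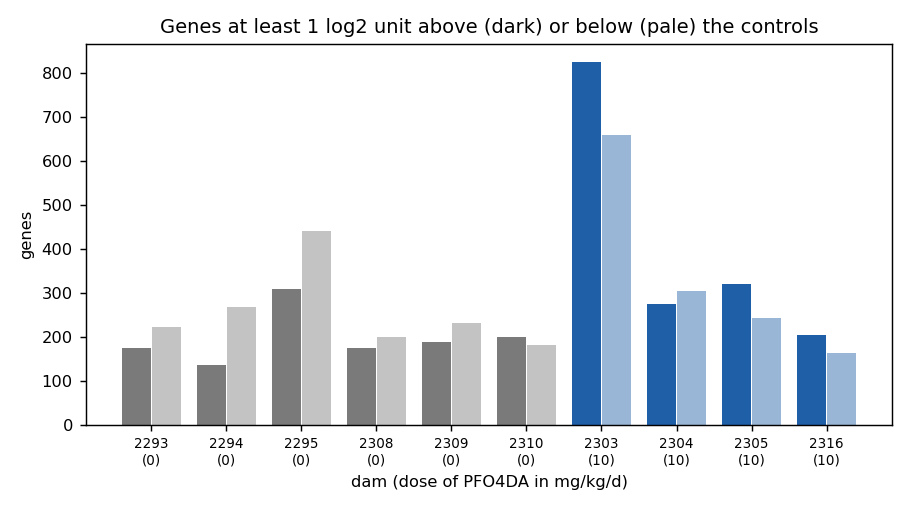
Number of genes (y axis) at least 1 log2 unit above (dark bars) or below (pale bars) the control mean in each maternal liver of the 0 (grey) and 10 mg/kg/d (blue) PFO4DA groups; a control is set against the other 5. Dam 2303 had 824 genes above and 658 below, and dam 2316 had 204 and 163.

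The dam identifiers form 2 runs of consecutive numbers, each opening with its own controls. In the first run (3 dosed dams, 3 controls) 0 genes passed in edgeR, with 247 genes at an unadjusted p under 0.05 (2.58%). There ENSRNOG00000016219 had a log2 fold change of 1.81 (edgeR, adjusted p = 0.453). The second run held a single dosed dam, at 38.5 CPM, and 3 controls at 16.2, 19.4 and 21.2 CPM. With the run as a covariate 2 genes passed, and the log2 fold change of ENSRNOG00000016219 was 1.63 (edgeR, adjusted p = 0.000125).

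Counts at the neighbouring maternal doses came from the same fit and the same controls, so they are set side by side only. At 0.3, 1 and 3 mg/kg/d, 0 of 10263 genes were called in edgeR, and an unadjusted p under 0.05 was found for 269, 221 and 285 genes (2.62, 2.15 and 2.78%). At 10 mg/kg/d 825 genes had such a p (8.04%), beside the 1 call. In the 30 mg/kg/d group 65 genes were called (0.633%), of which 63 rose (0.614%) and 2 fell (0.0195%), and 724 had an unadjusted p under 0.05 (7.05%). In the 62.5 mg/kg/d group 252 were called (2.46%), of which 185 rose (1.8%) and 67 fell (0.653%), and 1466 had an unadjusted p under 0.05 (14.3%).

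The next comparison set PFO4DA beside PFO5DoA in maternal liver at the matched dose of 10 mg/kg/d, a single pair of compounds, each against its own controls. Under PFO5DoA, 833 genes rose (7.85%) and 836 fell (7.88%) of 10611 tested, together 15.7%. The difference between the compounds, tested as an interaction over all 10965 genes of the joint fit, passed for 969 genes (8.84%). The log2 fold change under PFO4DA was the higher in 504 of them (4.6%) and the lower in 465 (4.24%). In 887 of the 950 differing genes that were tested under both compounds, the larger absolute log2 fold change was that under PFO5DoA. The median absolute log2 fold change of these 950 genes was 0.24 under PFO4DA and 0.96 under PFO5DoA. Both values are a description, since the genes were picked by that difference and 780 of the 969 were called under PFO5DoA. Over all genes tested, log2 fold changes had an SD of 0.37 under PFO4DA and 0.74 under PFO5DoA. Without the library of dam 2303 the count of differing genes was 521, with the PFO4DA change the higher in 233 and the lower in 288. Without replicate 3 of the PFO5DoA group at 10 mg/kg/d the count was 598. The median standard error of a difference was 0.35, so for most genes differences well under 1 log2 unit could not pass, and a gene that missed the threshold is not shown to respond alike.

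For ENSRNOG00000016219 the 4 maternal livers at 10 mg/kg/d PFO5DoA had 989, 473, 822 and 766 CPM, and the PFO5DoA controls ranged from 10.3 to 24.5 CPM with a median of 22.3 CPM. The lowest of these dosed livers was above the highest maternal PFO4DA liver of any dose, 181 CPM, although the tables were scaled apart. Under PFO5DoA the log2 fold change was 5.22, standard error 0.29 (edgeR, adjusted p = 5.89e-13). That under PFO4DA was lower by a log2 difference of -3.58, with an approximate 95% interval of -4.28 to -2.89 (edgeR, adjusted p = 4.13e-10). ENSRNOG00000010134 also had the larger response under PFO5DoA. Its means were 70.7 ± 14.2 CPM (SD, n = 4) in the PFO5DoA group and 4.25 ± 0.65 CPM (SD, n = 6) in those controls, and the difference between the compounds was -2.38, interval -3.17 to -1.59 (edgeR, adjusted p = 8.67e-05). ENSRNOG00000000923 had 40.5 ± 11.8 CPM (SD, n = 4) in the PFO5DoA group and 32.3 ± 4.55 CPM (SD, n = 6) in its controls. That difference between the compounds was -0.91, interval -1.32 to -0.50 (edgeR, adjusted p = 0.00413), whereas neither single change passed (edgeR, adjusted p = 0.145 and 0.196).

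Genes called under PFO5DoA were then followed in the PFO4DA livers, which share no dam and no control with them. These lists were chosen with the results known and get no test. The 1 mg/kg/d PFO5DoA group had 50 raised genes (0.471% of 10611) and 4 lowered ones (0.0377%), together 0.509%, and the rises had a median log2 fold change of 1.73. At 10 mg/kg/d PFO4DA the same 50 genes had a median of 0.47 on the log2 scale, against 0.02 over all genes, and 48 of them (96%) were above 0, against 53.9% of all genes. An unadjusted p under 0.05 with a positive sign was found for 22 of the 50 (44%), against 4.64% of all genes. ENSRNOG00000016219, the single gene that edgeR called at 10 mg/kg/d PFO4DA, was 1 of the 50. By dam, the median log2 difference of the 50 genes from the control mean was 0.47 in dam 2303, 1.07 in dam 2304, 0.33 in dam 2305 and 0.50 in dam 2316. The controls, each set against the other 5, had medians of -0.42 (dam 2295) and of -0.01 to 0.22 (the others). All 4 dosed livers thus lay above all controls on this list, with dam 2304 highest. Without dam 2304 the median log2 fold change was 0.28, and without dam 2303 it was 0.58. Along the PFO4DA doses, which share their controls, the list's median was 0.10, 0.03, 0.12, 0.47, 1.26 and 1.65 in the 0.3, 1, 3, 10, 30 and 62.5 mg/kg/d groups. The dams at 62.5 mg/kg/d PFO4DA were all in the second run of that arm. Those at 1 mg/kg/d PFO5DoA, which gave the list, were all in the first run of theirs. Controls came from both runs, and the run was not fitted for these values.

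The longer PFO5DoA lists had medians nearer to 0 in these livers. At 3 mg/kg/d PFO5DoA 343 genes were called (3.23%), 224 raised (2.11%) and 119 lowered (1.12%). Of the 224 raised genes, 212 were tested at 10 mg/kg/d PFO4DA, where their median log2 fold change was 0.25 and 77.8% were above 0. Of 833 genes raised at 10 mg/kg/d PFO5DoA, 797 were tested, with a median of 0.05 and 57.5% above 0, against 53.9% of all genes. The 118 tested genes lowered at 3 mg/kg/d PFO5DoA had a median of -0.08 and the 832 lowered at 10 mg/kg/d one of 0.01. On the lists of the 10 mg/kg/d PFO5DoA calls the dosed dams went apart. The raised list had medians of 0.22 in dam 2304, 0.11 in dam 2305 and 0.04 in dam 2316 but -0.16 in dam 2303, and the lowered list had -0.20, -0.07 and -0.02 in the same 3 dams but 0.22 in dam 2303. The library that stood apart therefore went against the PFO5DoA direction on both of these lists and with it on the list of 50.

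**Figure D4:**
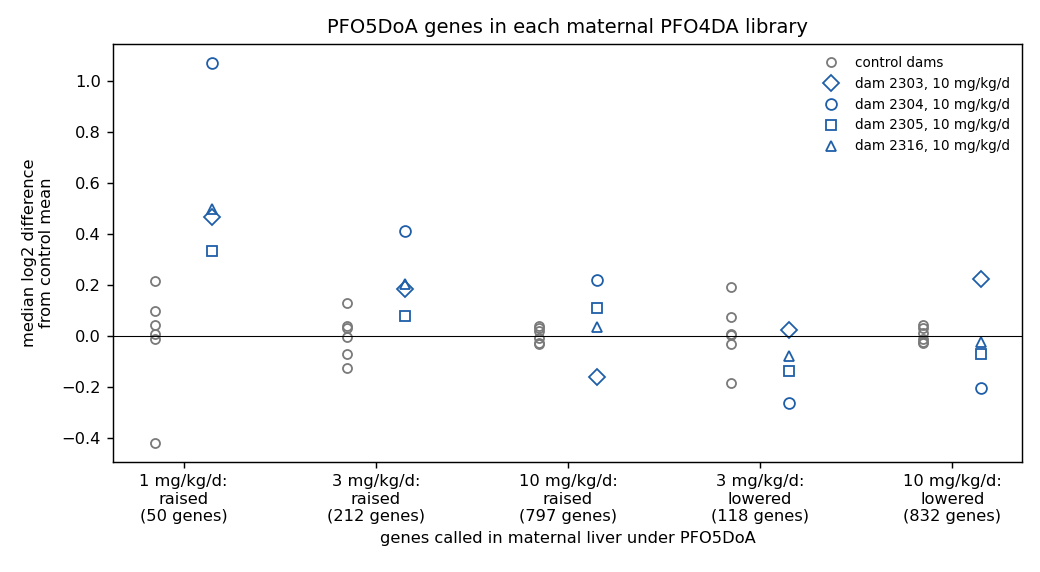
Median log2 difference from the PFO4DA control mean (y axis) of genes called under PFO5DoA (x axis, by dose and direction, number of genes in brackets) in each maternal PFO4DA liver. Grey circles are the 6 controls, each against the other 5, and blue symbols the 4 dams at 10 mg/kg/d. For the 50 genes raised at 1 mg/kg/d PFO5DoA the dosed dams lay at 0.33 to 1.07 and the controls at -0.42 to 0.22.

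Read from PFO4DA instead, the 23 genes that DESeq2 called as raised at 10 mg/kg/d PFO4DA were all tested under PFO5DoA. In the 1, 3 and 10 mg/kg/d PFO5DoA groups 9, 15 and 21 of them rose, where 0.471, 2.11 and 7.85% of all genes tested did, and 0 fell in any of the 3 groups. The 9 shared at 1 mg/kg/d were 39.1% of the PFO4DA list and 18% of the 50 raised by PFO5DoA. The 21 shared at 10 mg/kg/d were 91.3% of the PFO4DA list and 2.52% of the 833 raised by PFO5DoA. Of the 10 genes that DESeq2 called as lowered, 2 fell and 0 rose at 10 mg/kg/d PFO5DoA, where 7.88% of all genes fell and 7.85% rose, and their median log2 fold change there was 0.10. In fetal liver at 10 mg/kg/d PFO4DA 13 of the 23 raised genes rose, where 1.95% of all genes tested did. None of the 10 lowered genes fell there in edgeR, where 0.689% of all genes did, and a list of 10 is too short to tell that count from the background. The log2 medians there were 1.09 for the raised and 0.12 for the lowered genes.

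The last comparison asked whether the mother's liver responded to 10 mg/kg/d PFO4DA as the fetal liver of the same dams did. In fetal liver alone 218 genes rose (1.95%) and 77 fell (0.689%) of 11172 tested, together 2.64%, with a median standard error of 0.22, as in maternal liver. The difference between the livers, tested with dam as a block over 11610 genes, passed for 58 genes (0.5%). The response was lower in maternal liver for 41 (0.353%) and higher for 17 (0.146%). Some of the 41 had nearly the same values as one another. Their log2 fold changes were 0.29, 0.29 and 0.30 in maternal and 2.32, 2.32 and 2.28 in fetal liver. Their differences were -2.05, -2.05 and -1.99. No differing genes had equal counts in every library, and whether such genes count 1 signal more than once was not tested. Of the 295 genes called in fetal liver 42 were among these 58. For the rest of those 295 the difference did not pass, which does not show that both livers responded alike. Of the 58, 57 were tested in both livers singly. In 50 of these 57 the fetal log2 fold change was the larger in absolute size, and in 56 the maternal one lay within 1 unit of 0. Most genes did so: of all 10263 tested in maternal liver, 207 lay 1 unit or more from 0. The 57 were picked by the difference itself, so both counts are a description. The 40 with a lower maternal response had medians of -0.13 in maternal and 1.13 in fetal liver, and the 17 with a higher one had medians of 0.42 and -0.74. Leaving out 1 dam moved the count of 58 to between 24 and 83, and to 32 without dam 2303. The 17 with a higher maternal response then became 5 to 24, and the 41 with a lower one 19 to 62. Without dam 2303 these were 5 and 27.

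The clearest case was ENSRNOG00000006675, the gene with the smallest p of the difference, named for that place. In maternal liver it had 2933, 6201, 5368 and 4164 CPM in dams 2303, 2304, 2305 and 2316, and 2249 to 6134 CPM with a median of 5165 CPM in the controls. The maternal groups overlapped over nearly their whole range. In fetal liver of the same dams it had 3034, 6246, 6248 and 3381 CPM, against 338 to 965 CPM with a median of 559 CPM in the fetal controls. The dosed fetal livers were all above the controls and at about the level of their mothers, though maternal and fetal libraries were scaled apart. The log2 fold change was -0.07 in maternal liver (edgeR, adjusted p = 0.961) and 2.98 in fetal liver (edgeR, adjusted p = 1.21e-08), a difference of -3.02, interval -3.62 to -2.41 (edgeR, adjusted p = 3.99e-07). In maternal liver under PFO5DoA the same gene rose by a log2 fold change of 2.28 (edgeR, adjusted p = 2.01e-06), to 19200 ± 2505 CPM (SD, n = 4) from 3957 ± 1264 CPM (SD, n = 6). The difference between the compounds in maternal liver was -2.36, interval -3.09 to -1.63 (edgeR, adjusted p = 2.33e-05).

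The gene that edgeR called in maternal liver rose in fetal liver too. ENSRNOG00000016219 had 607, 1063, 851 and 517 CPM in the fetal livers of dams 2303, 2304, 2305 and 2316, against 96.4 to 244 CPM with a median of 128 CPM in the fetal controls. The fetal log2 fold change was 2.36 (edgeR, adjusted p = 2.22e-07), and the maternal one was lower by a log2 difference of -0.76 with an interval of -1.32 to -0.21, which did not pass (edgeR, adjusted p = 0.231). In both livers dam 2304 had the highest level and dam 2316 the lowest. Over the 198 genes raised in fetal liver and tested in maternal liver, the median log2 fold change was 0.99 in fetal and 0.17 in maternal liver, and 144 were above 0 in maternal liver, where 53.9% of all genes were. Over the 71 lowered ones it was -0.71 in fetal and -0.02 in maternal liver, and 37 were below 0 in maternal liver, where 46.1% of all genes were. The 50 genes raised at 1 mg/kg/d PFO5DoA, of which 48 were tested in fetal liver, had a median of 1.65 there, beside 0.47 in the maternal livers.

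**Figure D5:**
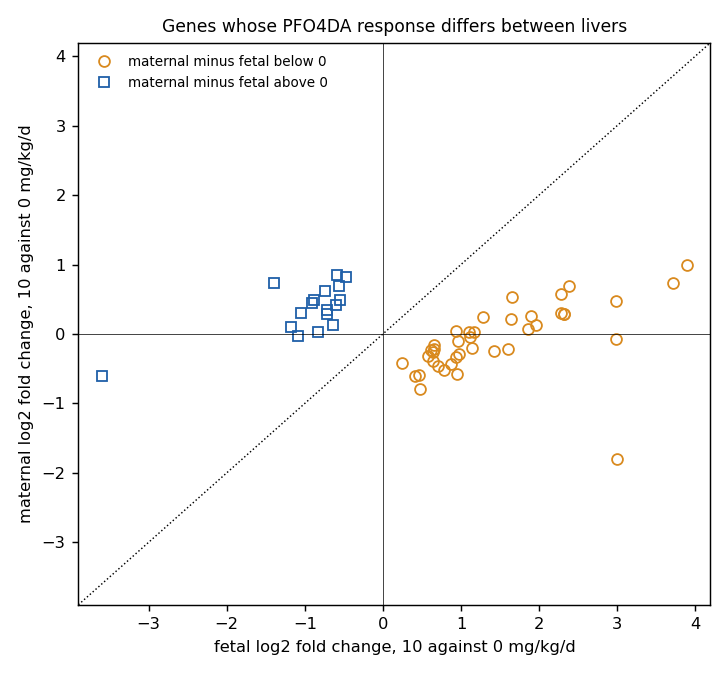
Log2 fold change at 10 against 0 mg/kg/d PFO4DA in fetal liver (x axis) and maternal liver (y axis) of the 57 genes whose response differed between the livers and that were tested in both. Circles are genes with the lower response in maternal liver and squares those with the higher; the dotted line marks equal change. Fetal values span -3.6 to 3.9, and 56 maternal values lie within 1 unit of 0. Of all 10263 genes tested in maternal liver, 207 lay 1 unit or more from 0.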

How the data were processed

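RNA of maternal and fetal liver was measured with TempO-Seq, a ligated-probe assay. The authors deposited 1 table of estimated counts (expected counts, not normalized) per chemical with 20311 genes; 11.2% of the PFO4DA and 11.7% of the PFO5DoA values had decimals (tolerance 1e-09). Partek, STAR 2.7.8a and DESeq2 appear in the submitters' processing notes, as does the build mRatBN7.2; which step each tool did is not given in the sources used here. Probe counts were rounded here before any test. Life stage was assigned by the correlation rule given in the report; Spearman's rho moved 0 columns. No column was left without a group, and 1 fetal PFO5DoA control library of very low total was not used.

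The members and lists were chosen with earlier results of these data known. edgeR 4.0.16 in R 4.3.3 was used (filterByExpr, TMM, robust quasi-likelihood fit, Benjamini-Hochberg adjusted p under 0.05). The maternal contrast came from 1 fit over all 30 maternal PFO4DA libraries. The contrast of livers used all PFO4DA libraries with the dam as a block, since the labels give each dam's identifier to both livers. The contrast of compounds used maternal libraries of both tables at doses with 3 or more dams. PFO5DoA and fetal changes alone, and the PFO5DoA lists, came from fits of those libraries only. Intervals are 1.96 standard errors on either side. Per-library log2 values used a prior count of 2. Libraries of a group come from separate dams. The smallest chi-square per degree of freedom between libraries of a group was 24.6 over genes with 20 or more counts, so none was counted as a duplicate. The fit was tested on simulated data.

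The rule for named genes asked for the 15 largest rises and falls past the threshold with 5 CPM or more, every dosed library on one side of the control mean, and a symbol. No symbol could be matched and 1 gene met the rest. It is named by ID with 3 others chosen by p after the values were seen. The 30 gene lists prepared for this tissue could not be looked up, and no sequence is printed for the same reason. DESeq2 1.42.0, limma 3.58.1, RLE scaling, no filter, fewer libraries, the dam run, the replicate number and single libraries left out were tried as alternatives.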

Additional observations from a re-analysis of the deposited data

Results flagged for a closer look

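Dixon's criterion for a single far value was applied to 40 groups of 4 or 6 libraries and marked 3, where chance marks about 1 in 20. Control dam 2295 was low for 2 of them, in maternal liver. It had 2249 CPM of ENSRNOG00000006675, against 4691 to 6134 CPM in the other controls, and a median log2 difference of -0.42 for the 50 genes raised at 1 mg/kg/d PFO5DoA. That gene is 1 of the 50, and both marks fall on the same library, so they are not separate. The 40 groups share libraries and are not independent checks. Without dam 2295 the median log2 fold change of those 50 genes at 10 mg/kg/d PFO4DA was 0.41 in place of 0.47, and 3 genes were called in place of 1. The third was ENSRNOG00000010134 in fetal control liver, at 27.1 CPM in dam 2293.

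The response at 10 mg/kg/d PFO4DA differed between maternal and fetal liver for 58 genes by the test of the difference. ENSRNOG00000006675 was the first of them, with a difference of -3.02. Between PFO4DA and PFO5DoA the maternal response at 10 mg/kg/d differed for 969 genes. The difference was -3.58 for ENSRNOG00000016219, -2.38 for ENSRNOG00000010134, -2.36 for ENSRNOG00000006675 and -0.91 for ENSRNOG00000000923.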

How the results depend on the processing

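Of 175 values under alternatives, 154 kept their call and direction, 4 passed where the reported value had not, 1 no longer passed, 16 moved by more than the limit set for them, and 0 reversed. The single call in maternal liver became 33 with DESeq2, 5 with the 0 and 10 mg/kg/d groups alone, 2 with the dam run as a covariate and 0 in the first run of dams; it stayed at 1 with RLE, limma, no filter and thinned libraries. With 1 library left out it was 1 to 4, with 3 without control dam 2295 and 4 without dam 2305. The count differing between livers (58) became 200 with DESeq2, 352 with no filter and 30 with the 0 and 10 mg/kg/d groups alone, and 24 to 83 with 1 dam left out (32 without dam 2303, 34 without dam 2304, 24 without dam 2308, 31 without dam 2309). The count differing between compounds (969) became 471 with the 0 and 10 mg/kg/d groups alone and 521 to 1233 with 1 library left out. The median of the 50 PFO5DoA genes stayed between 0.28 and 0.58 with 1 library left out. Several of these alternatives, the first run of dams among them, also fitted fewer libraries. The cause of these moves was not tested.

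Title numbers do not pair different dams: deviations of maternal libraries with the same number at 0 and 10 mg/kg/d correlated at -0.09 to 0.04 across genes. With that number as a block 1 gene was called in maternal liver and 912 differed between compounds. Without the dam as a block 47 genes differed between livers. Taking the stage from Afp was not run, since no ID could be matched to it. With 4 dosed dams and a median standard error of 0.22, changes under 1 log2 unit could not pass the test for most genes. Most larger changes did not pass either: of 207 genes with an absolute log2 fold change of at least 1, 1 passed in edgeR. A gene that did not pass is not shown to be unchanged.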
